A study of Homo sapiens with 12 samples.

Results

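The 33 genes described here encode proteins of homologous recombination, which repairs a broken chromosome by copying an intact sister, and of the Fanconi anemia pathway, which repairs covalent links between DNA strands. They were taken by symbol from a list of known members of both pathways, not by their measured values. All 33 were found in both deposited tables, each on 1 row, out of 23617 gene symbols for Granta-519 and 23615 for JeKo-1.

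The study compared cells with and without silencing of cyclin D1 (CCND1) in a pair of established human B cell lines, Granta-519 and JeKo-1. Both derive from mantle cell lymphoma, a tumour in which a chromosomal translocation drives CCND1. Each line was infected with a lentivirus and selected with puromycin, so the control libraries carry a virus and the selection too. The 4 groups of 3 libraries each are Granta-519 with a control shRNA (shCtrl), Granta-519 with an shRNA against cyclin D1 (shCycD1), and the same pair for JeKo-1. The series design calls the 3 libraries biological replicates. The p-values measure the spread between these libraries. The number of shRNA constructs or clones behind each group and the time after infection are not stated in the labels.

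In homologous recombination, a broken end is trimmed to single-stranded DNA, and with the help of BRCA2 and its partners this strand invades the sister chromatid. The joined molecules are then dissolved or cut. In the Fanconi pathway a core complex of FANC proteins attaches ubiquitin to the FANCD2-FANCI pair, which starts the removal of the crosslink. Most of these proteins act in S and G2 phases, when a sister chromatid is present.

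Values are RPKM, a read density scaled to gene length and library size, recovered from the deposited logs. Log2 changes are on the log2(RPKM + 0.5) scale, shCycD1 minus shCtrl. A gene was tested where at least 3 of a line's 6 libraries reached RPKM 1, and "called" means an adjusted p under 0.05 by limma over all genes tested in that line. All 33 members were tested in both lines, but RAD54B and BRIP1 in Granta-519 and RAD54B and FANCB in JeKo-1 passed through their shCtrl libraries only. Their calls as lower depend on that group being high, and the counts below include them. Levels are not comparable between the lines, whose tables were made separately, and those of different genes in Granta-519 were scaled by genomic span. The base of the log was settled from the values for Granta-519 only.

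CCND1, the targeted gene, stood at 924, 1044 and 874 RPKM in the Granta-519 shCtrl libraries and at 213, 298 and 292 in the shCycD1 libraries. The JeKo-1 shCtrl libraries held 395, 330 and 315 RPKM and the shCycD1 libraries 65.4, 64.8 and 67.4. The log2 change was -1.83 in Granta-519 (limma adjusted p = 0.000257) and -2.38 in JeKo-1 (limma adjusted p = 1.96e-06), in the direction of the labels. All 7 B cell markers passed the expression minimum in both lines, whereas 0 of 7 T and NK cell markers in Granta-519 and 1 of 7 in JeKo-1 did. Of 7 myeloid markers, 2 and 1 passed. The B cell markers had 4 of 7 called lower in Granta-519 and 4 of 7 called higher in JeKo-1, with summed levels of 2302 to 2398 RPKM against 2102 to 2206, and of 978 to 1114 RPKM against 1369 to 1547. SOX11, a marker of this lymphoma, held 94.1 to 119 RPKM in Granta-519 shCtrl and 5.97 to 6.74 in JeKo-1 shCtrl. It was called lower in both lines (-0.43 and -0.67, limma adjusted p = 0.036 and 0.00107). CD5, another such marker, stayed under the expression minimum in Granta-519 and was called lower in JeKo-1 (-0.48, limma adjusted p = 0.0287). In bulk RNA, fewer cells of a type (or of a cell cycle phase) and less RNA per cell cannot be told apart.

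In Granta-519, 26 of the 33 genes were lower with shCycD1 and 0 were higher. Of all 12668 genes tested, 18.2% were lower and 22.4% higher. The median log2 change of the 33 genes was -0.80, against 0.03 over all genes tested, and the range was -1.29 to 0.19. The shCtrl and shCycD1 libraries did not overlap for 26 genes that lay lower, against a background of 24.2%, and for 1 that lay higher, against 29.8%. At an unadjusted p under 0.05, limma counted 27 lower and 0 higher. The share of all genes at that threshold was not worked out, so these counts have no background beside them. Library weights gave 1 higher, FANCL at 0.19 (limma adjusted p = 0.0233), where 31.9% of all genes were higher.

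In JeKo-1, 28 of the 33 genes were lower, 1 was higher and 4 were not called. Of all 11866 genes tested there, 27.8% were lower and 36.7% higher. The median log2 change was -1.45, against 0.09 over all genes tested, and the range reached from -3.38 to 0.37. Libraries did not overlap for 29 genes lying lower and 2 lying higher, against backgrounds of 30.5% and 39.1%.

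In both lines 25 of the 33 were lower, as were 13.1% of the 10653 genes tested in both. XRCC3 was called lower in Granta-519 only, FANCL, FANCM and NBN in JeKo-1 only, and MUS81 was called higher in JeKo-1 only. FANCF, RAD50 and RAD52 were called in neither line.

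**Figure D1:**
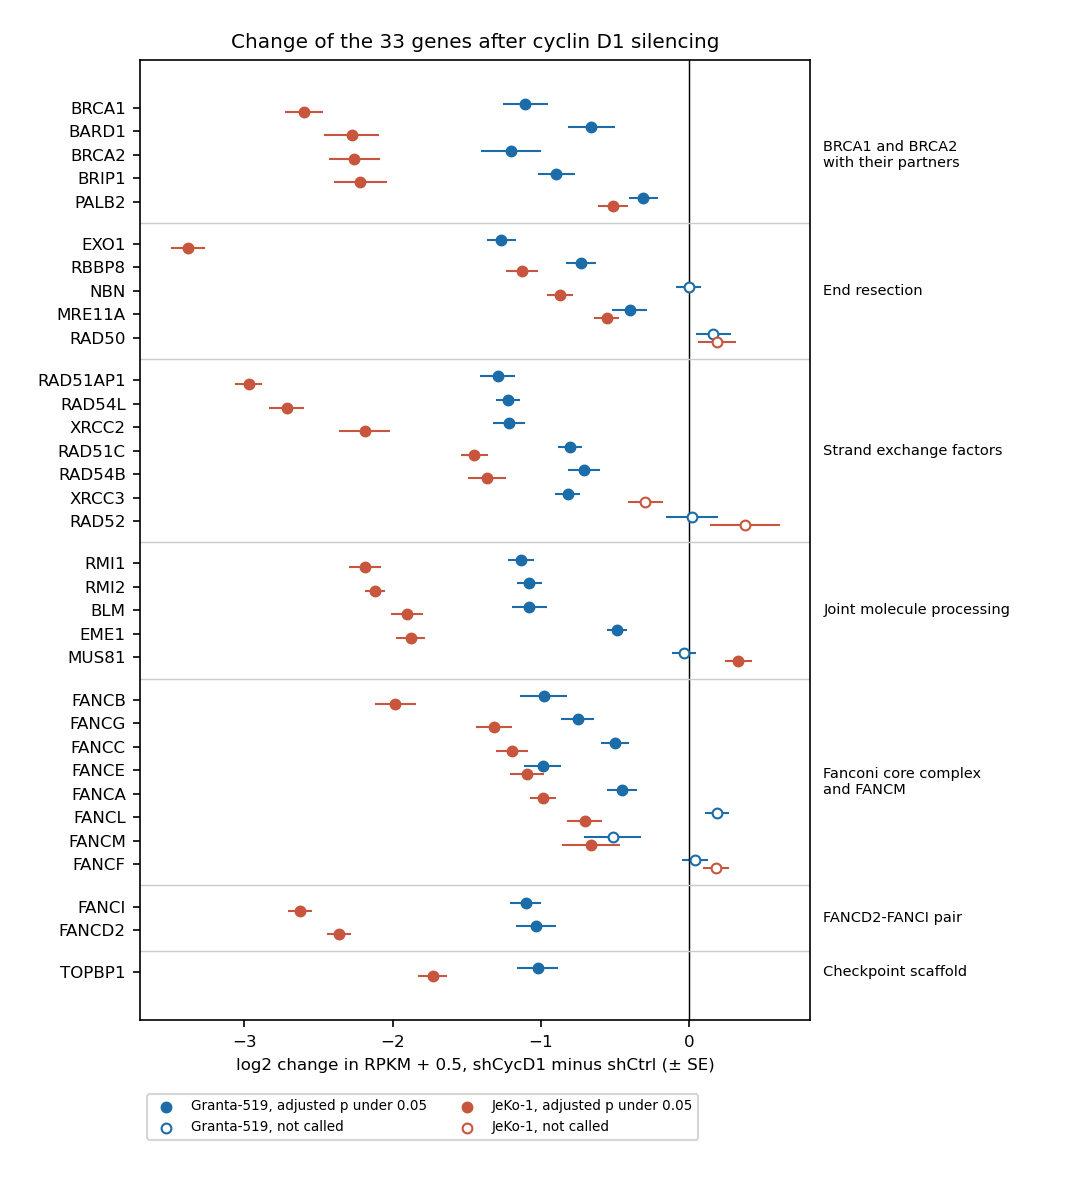
Log2 change in RPKM + 0.5 (shCycD1 minus shCtrl) of each of the 33 genes, grouped by role, with 1 point per line (blue Granta-519, red JeKo-1) and bars of 1 standard error; filled points are called. The JeKo-1 points lie further to the left for most genes, and the 1 filled point right of 0 is MUS81 in JeKo-1.

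The Granta-519 calls depended on the scaling. ERCC spike-ins, synthetic RNAs added to the samples, took 7.90 to 11.6% of the summed RPKM in the Granta-519 shCtrl libraries and 5.34 to 6.41% in the shCycD1 libraries. In JeKo-1 these shares were 4.64 to 6.77% and 4.51 to 7.37%. When the libraries were scaled to the spike-ins, the median of all genes in Granta-519 moved to 0.72 on the log2 scale and that of the 33 genes to -0.11. No member was then called lower there and 4 were called higher, namely FANCF (0.78), FANCL (0.86), RAD50 (0.87) and MUS81 (0.71). Of all genes tested there, 0.892% were then lower and 50.3% higher. Both medians moved by a similar amount, so the members still lay below the other genes. In JeKo-1 the median of the 33 genes was -1.54 with this scaling, and 26 were called lower, against 14.9% of all genes. The Granta-519 changes given below are therefore relative to the other genes of the library.

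**Figure D2:**
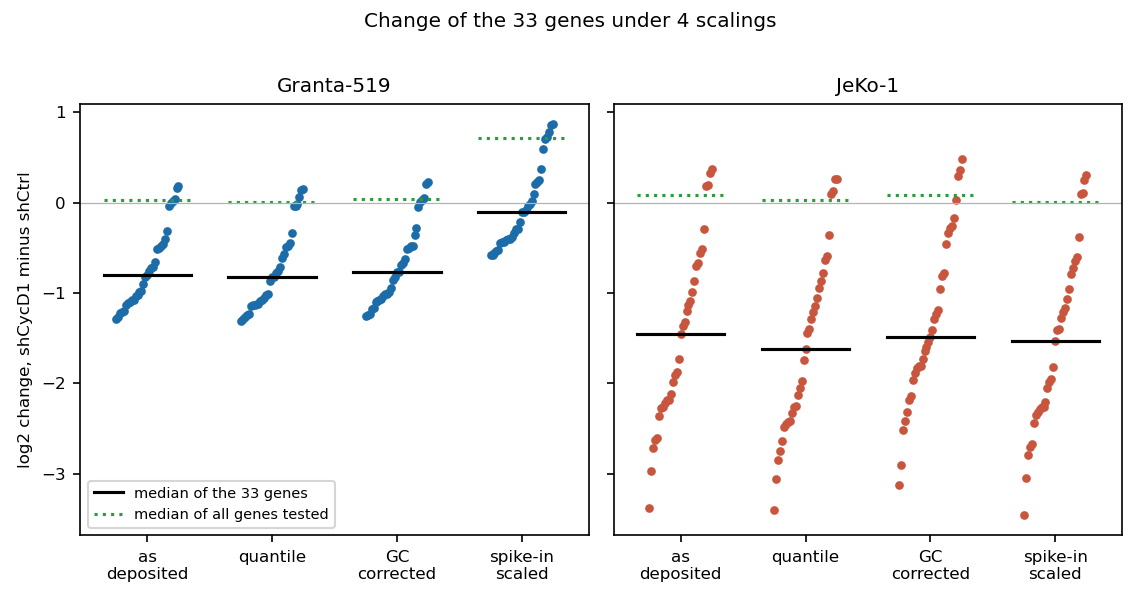
Log2 change (shCycD1 minus shCtrl) of each of the 33 genes in Granta-519 (left) and JeKo-1 (right) under 4 scalings, with the members' median as a black bar and the median of all genes tested as a dotted line. Under spike-in scaling both Granta-519 medians shift upward, the members from -0.80 to -0.11 and all genes from 0.03 to 0.72, and in JeKo-1 they shift little.

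BRCA1, BRCA2 and their partners fell in both lines, 5 of 5 in each. The median log2 change was -0.90 in Granta-519 and -2.26 in JeKo-1. BRCA1 promotes end resection and recruits PALB2 with BRCA2. It stood at 8.89, 7.07 and 8.94 RPKM in the Granta-519 shCtrl libraries and at 3.10, 4.45 and 3.28 with shCycD1. In JeKo-1 the values were 12.7, 12.03 and 15.2 against 1.55, 2.04 and 1.75. No shCycD1 library reached any shCtrl library in either line. The mean fell to 43.5% of shCtrl in Granta-519 (log2 change -1.11, SE 0.15, limma adjusted p = 0.00181) and to 13.3% in JeKo-1 (-2.60, SE 0.13, limma adjusted p = 4.94e-06).

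BRCA2, which acts with PALB2 to prepare the resected strand for invasion, stood at 8.57, 5.34 and 8.84 RPKM in Granta-519 shCtrl and at 2.56, 3.50 and 2.83 with shCycD1. Its JeKo-1 values were 6.49, 5.63 and 9.36 against 1.12, 1.04 and 1.04. In each line the second shCtrl library was the lowest of its group and still lay above every shCycD1 library. The log2 change was -1.20 in Granta-519 (SE 0.20, limma adjusted p = 0.00393) and -2.26 in JeKo-1 (SE 0.17, limma adjusted p = 4.07e-05).

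The other partners differed in depth. BARD1, the obligate partner of BRCA1 in its ubiquitin ligase, changed by -0.66 in Granta-519 (limma adjusted p = 0.0157) and by -2.28 in JeKo-1 (limma adjusted p = 5.21e-05). BRIP1, a helicase that binds BRCA1, changed by -0.90 and -2.22. In Granta-519 its shCtrl libraries held 1.22 to 1.75 RPKM. Its shCycD1 libraries there held 0.51 to 0.65, all under the expression minimum. PALB2, which bridges BRCA1 and BRCA2, had the smallest change of the 5, -0.31 in Granta-519 (limma adjusted p = 0.0407) and -0.51 in JeKo-1 (limma adjusted p = 0.00337). In Granta-519 the BARD1 call was lost without the first shCtrl library (adjusted p = 0.0542) or the first shCycD1 library (0.0598). The PALB2 call there was lost without any 1 library except the second shCtrl library, with limma adjusted p values of 0.0608 without the second shCycD1 library, 0.109 and 0.131 without the third and the first shCtrl library, and 0.134 and 0.116 without the first and the third shCycD1 library. With no filter on low values it was lost too (limma adjusted p = 0.0578).

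**Figure D3:**
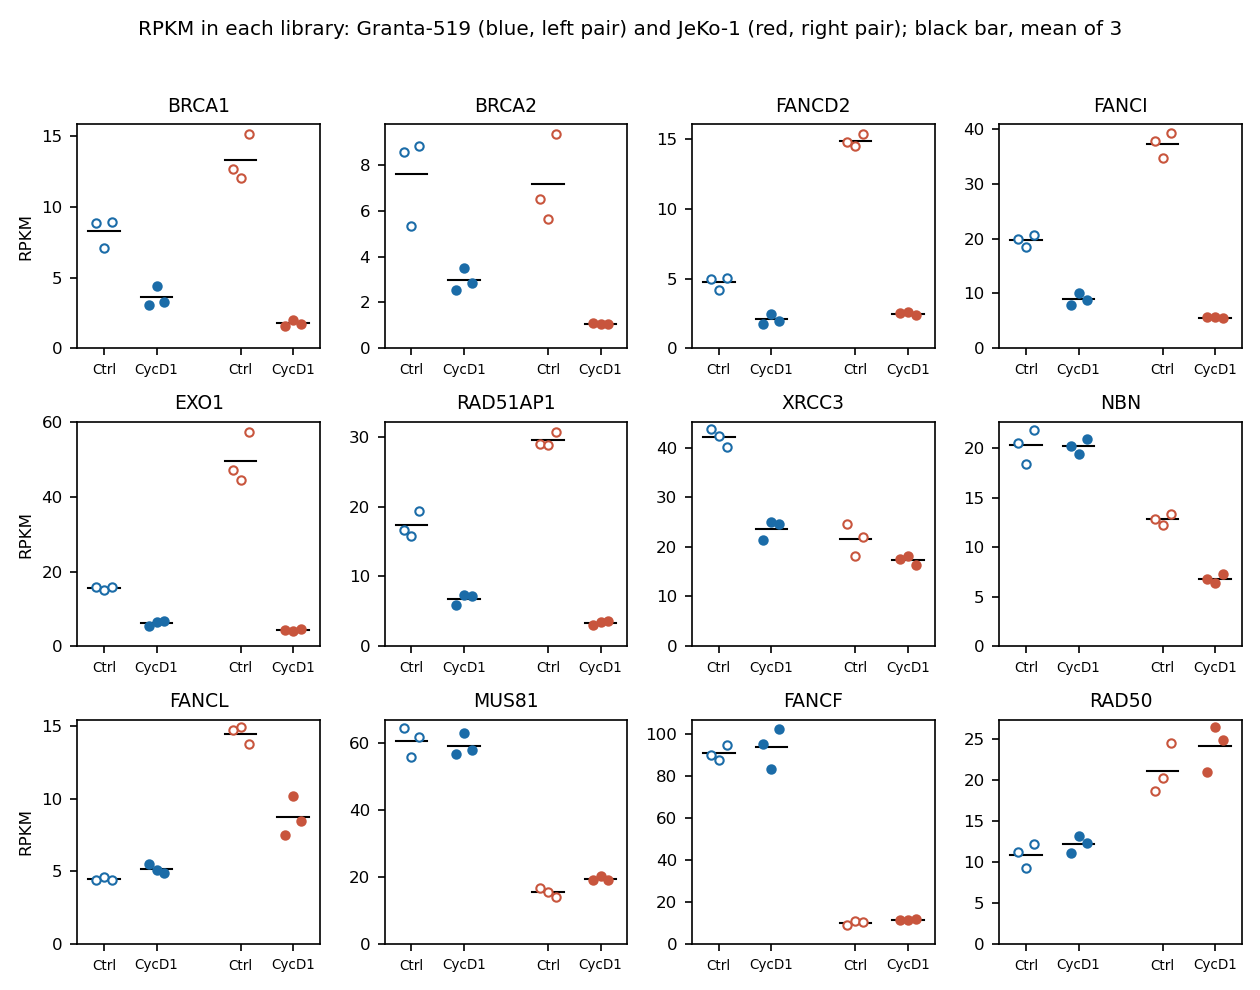
RPKM of 12 members in each library, on a linear axis from 0, with Granta-519 in blue and JeKo-1 in red; open circles are shCtrl, filled circles shCycD1, and black bars the mean of 3. For EXO1 and RAD51AP1 the groups are apart in both lines, while for NBN and MUS81 they overlap in Granta-519 and separate in JeKo-1.

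End resection, the trimming of broken ends, was mixed in Granta-519. There 3 of 5 genes were lower, with a median of -0.40, and in JeKo-1 4 of 5, with a median of -0.87. EXO1, a nuclease for long-range resection, accounted for the largest JeKo-1 fall of all 33 genes. Its level was 15.8, 15.1 and 15.8 RPKM in Granta-519 shCtrl and at 5.40, 6.45 and 6.73 with shCycD1. The JeKo-1 values were 47.1, 44.4 and 57.5 against 4.27, 3.96 and 4.66. EXO1 thus kept 39.8% of its shCtrl mean in Granta-519 (log2 change -1.27, SE 0.10, limma adjusted p = 0.000241) and 8.65% in JeKo-1 (-3.38, SE 0.12, limma adjusted p = 1.31e-06).

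The 3 genes of the MRE11-RAD50-NBN complex, which senses breaks and starts resection, did not move together. NBN read 20.6, 18.4 and 21.9 RPKM against 20.3, 19.4 and 21.0 in Granta-519, where the groups overlapped (log2 change -0.0022, SE 0.09, limma adjusted p = 0.986). In JeKo-1 it read 12.9, 12.3 and 13.4 against 6.79, 6.38 and 7.27, and all shCycD1 libraries lay lower (-0.87, SE 0.09, limma adjusted p = 0.000134). RAD50 was not called in either line, with 0.16 in Granta-519 and 0.19 in JeKo-1. MRE11A (the older symbol of MRE11, a nuclease) changed by -0.40 (limma adjusted p = 0.0333) and -0.56 (limma adjusted p = 0.00095). RBBP8, whose product CtIP stimulates MRE11, fell by 0.73 and by 1.13 on the log2 scale (limma adjusted p = 0.00189 and 0.000113). The Granta-519 call of MRE11A was lost without the first or the third shCtrl library (limma adjusted p = 0.107 and 0.0888) and without the first or the third shCycD1 library (0.115 and 0.0997), and with no filter on low values (0.059). Correcting for GC content ended its JeKo-1 call (-0.17, adjusted p = 0.0711) and gave RAD50 a call as higher there (0.49, adjusted p = 0.00381).

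Of the strand exchange factors, 6 of 7 were lower in Granta-519, with a median of -0.82, and 5 of 7 in JeKo-1, with a median of -1.45. RAD51AP1 stimulates strand invasion. It stood at 16.7, 15.8 and 19.4 RPKM in Granta-519 shCtrl and at 5.85, 7.35 and 7.13 with shCycD1. In JeKo-1 it went from 28.99, 28.8 and 30.7 to 2.99, 3.45 and 3.55. This was the largest fall of the 33 genes in Granta-519 (log2 change -1.29, SE 0.12, limma adjusted p = 0.00041) and the second in JeKo-1 (-2.97, SE 0.09, limma adjusted p = 8.64e-07).

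RAD54L, a DNA translocase of strand exchange, read 13.2, 12.5 and 13.5 RPKM against 4.97, 5.40 and 5.56 in Granta-519. In JeKo-1 it read 14.9, 15.0 and 14.7 against 1.495, 2.16 and 1.91. Both groups were tight and far apart in both lines, at -1.22 (SE 0.08, limma adjusted p = 0.000187) and -2.72 (SE 0.12, limma adjusted p = 3.32e-06). XRCC2, an accessory factor of strand exchange, read 5.48, 4.80 and 5.69 RPKM against 1.79, 2.25 and 1.99 in Granta-519, and 9.43, 7.59 and 12.3 against 1.502, 1.88 and 1.78 in JeKo-1. Its log2 changes were -1.21 (SE 0.11, limma adjusted p = 0.000376) and -2.19 (SE 0.17, limma adjusted p = 4.49e-05).

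RAD51C, another accessory factor, changed by -0.80 in Granta-519 and -1.45 in JeKo-1. RAD54B, a relative of RAD54L, changed by -0.71 and -1.36. All 4 values were called (limma adjusted p from 1.65e-05 to 0.00288). RAD54B reached the expression minimum in its shCtrl libraries only, in both lines. RAD52, an annealing factor, was called in neither line, with 0.02 in Granta-519 (limma adjusted p = 0.947) and 0.37 in JeKo-1 (limma adjusted p = 0.199), and its groups overlapped in both.

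XRCC3, which pairs with RAD51C, differed from XRCC2 and RAD51C. It read 43.8, 42.4 and 40.02 RPKM against 21.5, 25.0 and 24.5 in Granta-519, and 24.6, 18.2 and 21.9 against 17.6, 18.1 and 16.3 in JeKo-1. The groups were well apart in Granta-519 (log2 change -0.82, SE 0.08, limma adjusted p = 0.000578). In JeKo-1 the second shCtrl library lay just above the shCycD1 libraries, and the change was not called (-0.29, SE 0.12, limma adjusted p = 0.0596). Without that library it was called lower (-0.41, limma adjusted p = 0.0125), and with a correction for GC content it was -0.81 (limma adjusted p = 0.000452).

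Of the genes that process joint molecules, 4 of 5 were lower in each line, with medians of -1.08 in Granta-519 and -1.90 in JeKo-1. BLM, RMI1 and RMI2 belong to the complex that dissolves double Holliday junctions. RMI1 read 27.1, 25.3 and 29.96 RPKM against 11.6, 12.2 and 12.9 in Granta-519, and 21.9, 26.5 and 26.8 against 4.71, 5.40 and 5.21 in JeKo-1. RMI2 read 71.1, 83.2 and 70.6 RPKM against 33.9, 35.7 and 35.8, and 46.3, 45.8 and 45.1 against 10.1, 9.88 and 10.5. The 2 subunits changed by like amounts, RMI1 by -1.13 and -2.18 (limma adjusted p = 0.000249 and 5.1e-06) and RMI2 by -1.08 and -2.12 (limma adjusted p = 0.000254 and 9.9e-07). BLM, the helicase of the complex, changed by -1.08 and -1.90 (limma adjusted p = 0.00078 and 1.03e-05).

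EME1 and MUS81, the 2 subunits of a nuclease that cuts joint molecules, did not change together. EME1 read 39.6, 39.9 and 41.9 RPKM against 29.3, 27.4 and 29.6 in Granta-519 (log2 change -0.48, SE 0.07, limma adjusted p = 0.00191). In JeKo-1 it read 5.90, 5.33 and 6.10 against 1.12, 1.29 and 1.21 (-1.88, SE 0.10, limma adjusted p = 6.41e-06). Its partner lay on the other side of 0 or near it. MUS81 read 64.5, 55.8 and 61.8 RPKM against 56.6, 63.2 and 58.0 in Granta-519, where the groups overlapped (-0.03, SE 0.08, limma adjusted p = 0.776). In JeKo-1 it read 16.7, 15.6 and 13.99 against 19.1, 20.3 and 19.2, so that all shCycD1 libraries lay higher (0.33, SE 0.09, limma adjusted p = 0.0129). This call, the only higher one among the 33, was lost with a correction for GC content (0.03, limma adjusted p = 0.718) and with scaling to the spike-ins (0.25, limma adjusted p = 0.555).

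Several members share genomic sequence with another protein-coding gene in the GENCODE v29 annotation, 14 of the 33. The library kit keeps strand, but no label says whether the counting used it, so reads of such pairs may be mixed. EME1 shares 77.8% of its span with LRRC59, which changed by -0.26 in Granta-519 and -0.67 in JeKo-1. LRRC59 had a higher RPKM than EME1 (142.1 and 72.4 on average). XRCC3 shares 93.0% of its span with KLC1 (-0.12 and 0.34). MUS81 shares 46.6% with CFL1 (0.02 and -0.19), which had a far higher RPKM, 4686 and 782 on average. Levels of different genes in Granta-519 were scaled by genomic span, so they do not rank such pairs by abundance there. RAD54L shares 56.1% with LRRC41, which changed by 0.18 and 0.95, against the fall of RAD54L. RAD54B shares 62.8% with FSBP on the same strand, where counting by strand would not separate them. FSBP changed by -0.53 in Granta-519 at an average of 5.06 RPKM, and lay under the expression minimum in JeKo-1. RAD50 shares 99.7% with AC116366.3, also on the same strand, a gene without a value in either line. FANCD2 shares 27.3% of its span with FANCD2OS on the other strand, and both were lower in both lines. FANCD2OS changed by -1.029 in Granta-519 and -1.602 in JeKo-1, at averages of 4.575 and 1.294 RPKM. FANCD2 changed by -1.03 and -2.36. The values of EME1, XRCC3, MUS81, RAD54L, RAD54B, RAD50 and FANCD2 are uncertain for this reason. The part of these neighbours in the results was not tested.

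The Fanconi core complex and FANCM were split. In Granta-519 5 of 8 were lower, with a median of -0.51, and in JeKo-1 7 of 8, with a median of -1.04. FANCA, FANCB, FANCC, FANCE and FANCG, all core subunits, were lower in both lines. FANCB changed by -0.98 and -1.98 (limma adjusted p = 0.00318 and 2.57e-05). Its shCtrl libraries held 2.33 to 3.26 RPKM in Granta-519 and 2.70 to 3.49 in JeKo-1. Its JeKo-1 shCycD1 libraries held 0.26 to 0.46, all under the expression minimum. FANCE changed by -0.99 and -1.09 (limma adjusted p = 0.00115 and 0.000176), and FANCG by -0.75 and -1.32 (limma adjusted p = 0.00224 and 8.96e-05). FANCA changed by -0.45 and -0.98, and FANCC by -0.50 and -1.20. The Granta-519 call of FANCA, at an adjusted p of 0.0116, was lost without the first shCycD1 library (limma adjusted p = 0.0509).

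FANCL, the ubiquitin ligase subunit, read 4.43, 4.61 and 4.38 RPKM against 5.48, 5.11 and 4.90 in Granta-519. There the shCycD1 libraries lay slightly higher without a call (log2 change 0.19, SE 0.08, limma adjusted p = 0.11). In JeKo-1 it read 14.7, 14.9 and 13.8 against 7.52, 10.2 and 8.496, all shCycD1 libraries lying lower (-0.70, SE 0.12, limma adjusted p = 0.00153). FANCF, a core adaptor, was called in neither line (0.04 and 0.18), and with a correction for GC content it was called higher in JeKo-1 (0.30, limma adjusted p = 0.00785). FANCM, the translocase that anchors the core complex on DNA, changed by -0.52 in Granta-519 (limma adjusted p = 0.0733) and -0.66 in JeKo-1 (limma adjusted p = 0.0197). The FANCM calls changed with single libraries and with other settings. In Granta-519 it was called lower without the second shCtrl library (-0.71, limma adjusted p = 0.0131), with quantile normalization (0.0361) and with library weights (0.00474). In JeKo-1 the call was lost without the second or the third shCtrl library (0.0577 and 0.0638) or the first shCycD1 library (0.0616), and with a correction for GC content (-0.26, limma adjusted p = 0.157).

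The FANCD2-FANCI pair, the ubiquitinated clamp of the pathway, fell in both lines. FANCD2 read 4.95, 4.19 and 5.03 RPKM against 1.72, 2.49 and 1.99 in Granta-519, and 14.8, 14.5 and 15.4 against 2.51, 2.59 and 2.37 in JeKo-1. FANCI read 19.9, 18.5 and 20.7 RPKM against 7.86, 10.1 and 8.86, and 37.8, 34.8 and 39.2 against 5.64, 5.66 and 5.52. The groups were apart by more than their spread in all 4 cases. FANCD2 changed by -1.03 (SE 0.13, limma adjusted p = 0.00142) and -2.36 (SE 0.08, limma adjusted p = 1.38e-06), and FANCI by -1.10 (SE 0.11, limma adjusted p = 0.000462) and -2.63 (SE 0.08, limma adjusted p = 8.64e-07). TOPBP1, a scaffold that activates the ATR checkpoint kinase, changed by -1.02 and -1.73 (limma adjusted p = 0.00162 and 9.57e-06).

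The change itself differed between the lines for 26 of the 33 genes in a joint fit of the 12 libraries. For 24 the fall was deeper in JeKo-1, where 19.3% of 10653 genes went that way, and for 2 the change was lower in Granta-519, against 22.6%. The median difference (Granta-519 minus JeKo-1) over the 33 was 0.83 on the log2 scale, against -0.02 over all genes. The smallest adjusted p belonged to EXO1, with a difference of 2.11 (SE 0.15, limma adjusted p = 2.21e-06). RAD51AP1 (1.68), FANCI (1.52), RAD54L (1.49), BRCA1 (1.49) and EME1 (1.39) followed in size among the 10 with the smallest adjusted p, which also held FANCD2, RMI1, RMI2 and NBN (limma adjusted p up to 0.000186). In the other direction stood XRCC3, at -0.52 (SE 0.15, limma adjusted p = 0.0138), and MUS81, at -0.37 (SE 0.12, limma adjusted p = 0.0264).

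These differences depended on several choices. The JeKo-1 values were taken out of a natural log. If that line's table was in base 2, the JeKo-1 median would be -1.03 and the median difference 0.38. Then 14 genes instead of 24 would have the deeper fall in JeKo-1, where 15.8% of all genes would go that way. With a correction for GC content, 21 genes had the deeper fall in JeKo-1 and 0 the lower change in Granta-519. Of all genes, 17.7% and 18.0% then went these ways. The calls of BRCA2 (0.65, limma adjusted p = 0.0829), RAD54B (0.28, limma adjusted p = 0.168), RBBP8 (0.10, limma adjusted p = 0.668), XRCC3 (-0.01, limma adjusted p = 0.957) and MUS81 (-0.09, limma adjusted p = 0.559) were then lost. Scaling to the spike-ins turned the differences of XRCC3 and MUS81 positive (0.30 and 0.46), but the median difference of all genes moved to 0.76. Quantile normalization ended the MUS81 call (limma adjusted p = 0.0668). The MUS81 difference was also lost without the first or the third library of either Granta-519 group, the third JeKo-1 shCtrl library or the second JeKo-1 shCycD1 library (limma adjusted p from 0.0531 to 0.0697). RBBP8, at 0.40 (limma adjusted p = 0.0483), lost its call without any of 9 single libraries (limma adjusted p from 0.0614 to 0.114), and without the other 3 it kept it. RBBP8 also lost it with a pseudocount of 0.1 (limma adjusted p = 0.136), no filter (0.0579) or quantile normalization (0.0879).

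**Figure D4:**
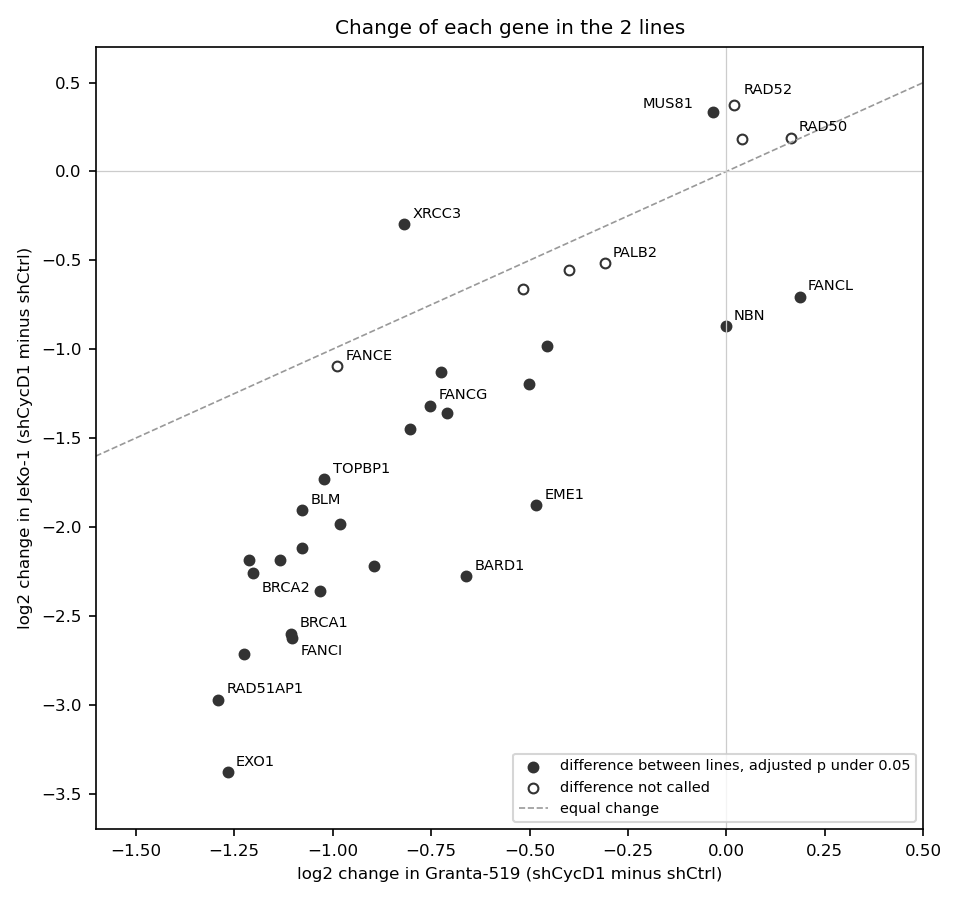
Log2 change of each of the 33 genes in Granta-519 (x axis) against JeKo-1 (y axis), with a dashed line of equal change; filled points have a called difference between the lines. Most points lie below the line, among them EXO1 at -1.27 and -3.38, and the 2 filled points above it are XRCC3 and MUS81.

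The rest of both pathways was described with a list of 53 genes, of which 47 were found in the tables. In Granta-519 18 of 43 tested were lower and 2 higher, with a median of -0.23. In JeKo-1 22 of 45 were lower and 11 higher, with a median of -0.30. These JeKo-1 counts include MMS22L and POLQ as lower, which passed the expression minimum through shCtrl libraries only. They also include EME2 as higher, which passed through shCycD1 libraries only. Such calls depend on that group being high. Of all genes tested, 18.2% were lower and 22.4% higher in Granta-519, and 27.8% and 36.7% in JeKo-1. UBE2T, the ubiquitin-conjugating enzyme that serves FANCL, changed by -1.47 in Granta-519 and -2.03 in JeKo-1. DNA2, a resection nuclease, changed by -1.30 and -2.77. POLQ, the polymerase of an alternative end-joining route, changed by -0.21 in Granta-519 (limma adjusted p = 0.0433) and -2.53 in JeKo-1 (limma adjusted p = 6.41e-06). Its JeKo-1 shCycD1 libraries held 0.79 to 0.89 RPKM, all under the expression minimum. RECQL5 and FBXO18, helicases that limit recombination, were the 2 called higher in Granta-519, at 0.37 and 0.35 (limma adjusted p = 0.0158 and 0.0201), and also rose in JeKo-1, by 0.88 and 1.25. These 2 were named after their values were seen.

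Genes of DNA replication and mitosis fell with the recombination genes. Of the replication genes, 33 of 34 were lower in Granta-519 (median -1.21) and 35 of 35 in JeKo-1 (median -2.26). Of the mitosis genes, 30 of 30 were lower in each line, with medians of -1.37 and -3.49. The change was deeper in JeKo-1 for 32 of 34 replication genes and 30 of 30 mitosis genes, where 19.3% of all genes went that way. Genes of non-homologous end joining, which rejoins ends without a sister chromatid, had 5 of 11 lower and 0 higher in Granta-519 (median -0.31), and 6 of 12 lower and 3 higher in JeKo-1 (median -0.38). Over all genes tested, 18.2% were lower and 22.4% higher in Granta-519, and 27.8% and 36.7% in JeKo-1. The part of cell cycle phase in the fall of the recombination genes was not tested.

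The promoters of the members were read in RefSeq windows of GRCh38.p14, from 250 bases before to 50 bases after each annotated start, available for 29 of the 33. The E2F consensus, searched as TTTCCCGC, TTTCGCGC, TTTGCCGC and TTTGGCGC on both strands, marks the sites by which E2F factors, the targets of the retinoblastoma protein that cyclin D1 with its kinases inactivates, act on S phase genes. It occurred in 7 of 29 members (24.1%), in 3.99% of 27305 genes with a window and in 7.07% of the 7684 of those tested in both lines. The 7 members with a match were XRCC2, EXO1, FANCA, FANCC (with 2 matches), FANCD2, RMI1 and TOPBP1. All matches are shown. The 7 were called lower in both lines, as were 25 of the 33 members. Each stretch runs 5′ to 3′ on the gene's strand, with the match in capitals.
XRCC2: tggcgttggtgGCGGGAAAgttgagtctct
EXO1: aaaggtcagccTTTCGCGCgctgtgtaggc
FANCA: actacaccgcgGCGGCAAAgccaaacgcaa
FANCC, upstream match: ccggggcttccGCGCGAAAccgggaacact
FANCC, second match: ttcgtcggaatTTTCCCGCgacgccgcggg
FANCD2: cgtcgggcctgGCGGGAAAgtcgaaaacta
RMI1: ggcgcgagcgcGCGGCAAAtcgggcgggaa
TOPBP1: ccgcgcggttgGCGCGAAAgtcggttcccg

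In GRCh38.p14 the stretches lie at chr7:152676102-152676131 on the minus strand (XRCC2), chr1:241848197-241848226 on the plus strand (EXO1), chr16:89816801-89816830 on the minus strand (FANCA), chr9:95317863-95317892 and chr9:95317737-95317766 on the minus strand (FANCC), chr3:10026424-10026453 on the plus strand (FANCD2), chr9:83980762-83980791 on the plus strand (RMI1) and chr3:133661930-133661959 on the minus strand (TOPBP1). The match of EXO1 covers bases 5 to 12 after the start and that of XRCC2 bases 22 to 29. Those of FANCD2 and TOPBP1 span the start, and those of FANCA, FANCC and RMI1 lie before it.

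The 7 members with a match had a median log2 change of -1.03 in Granta-519 and -2.18 in JeKo-1. Of the 22 members with a window and no match, 16 were lower in Granta-519 (median -0.74) and 17 in JeKo-1 (median -1.22). The ranges overlapped, from -1.27 to -0.45 against -1.29 to 0.19 in Granta-519 and from -3.38 to -0.98 against -2.97 to 0.37 in JeKo-1. The CHR letters TTTGAA, an element of mitotic promoters, occurred in 2 of 29 members (6.90%) against 18.2% of all genes with a window and 13.3% of those tested in both lines. CCAAT occurred in 13 of 29 (44.8%), against 39.7% and 44.3%. A match describes letters only, and no binding was measured in these data.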

How the data were processed

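The 12 libraries, 3 for each of 4 groups, were grouped here by sample title. Per the labels' protocols, RNeasy columns gave the total RNA, and the mRNA kit used for sequencing keeps strand. Tools in the submitters' processing notes are TopHat2 2.1.1, FastQC and limma 3.9, and the builds are hg19 and GRCh37, without a role for any. No source used here gives the read counter or the annotation.

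The authors deposited 1 table per line, with 25368 and 25370 rows, 92 of each being spike-ins. Each deposited value was taken to be a natural log, that of RPKM + 1. This was checked in Granta-519: after undoing the natural log, low values times genomic span were whole multiples of 1 step in 77.9 to 82.4% of cases (tolerance 0.1), where chance gives 20%. Base 2 gave 53.4 to 58.5%. For JeKo-1 no base gave more than 37.3%. The SD of spike-in logs there, over that of Granta-519, had a median of 0.97 with a natural log and 0.72 with base 2. Depth in reads is unknown, since the deposited values are not counts, so no counting intervals are given.

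Log2(RPKM + 0.5) was fitted with limma-trend (limma 3.58.1, R 4.3.3), each line alone and all 12 libraries for the difference between the lines. P-values were adjusted by Benjamini-Hochberg over all genes tested. The fit was tested on simulated data. Alternatives were another pseudocount (0.1 or 1), no filter, mean RPKM of at least 5, quantile normalization, spike-in scaling, a lowess correction for transcript GC content (94.3% of symbols, all 33 members), library weights, a replicate block, leaving out each library, a joint fit, and base 2 for JeKo-1.

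Values per library are given for the 4 largest falls in each line, members called higher, the 10 smallest adjusted p of the difference, BRCA1, BRCA2, FANCD2 and FANCI. XRCC3 and FANCL were added to these after their values were seen. Of the other pathway genes, the 3 with the largest change in each line are named. The values of 1 gene among these are not reported here. The members, lists and tests were chosen with earlier results of these data known.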

Additional observations from a re-analysis of the deposited data

Results flagged for a closer look

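The change with shCycD1 differed between the lines, by limma's test of the difference itself (adjusted p under 0.05), for 26 of the 33 genes. Values are log2 changes in Granta-519 minus those in JeKo-1. Among the partners of BRCA1 and BRCA2 they were 1.49 for BRCA1, 1.06 for BRCA2, 1.62 for BARD1 and 1.32 for BRIP1. Resection genes had 2.11 for EXO1, 0.87 for NBN and 0.40 for RBBP8. Strand exchange factors had 1.68 for RAD51AP1, 1.49 for RAD54L, 0.97 for XRCC2, 0.65 for RAD54B, 0.64 for RAD51C and -0.52 for XRCC3. For joint molecules they were 1.39 for EME1, 1.05 for RMI1, 1.04 for RMI2, 0.83 for BLM and -0.37 for MUS81. In the Fanconi pathway they were 1.52 for FANCI, 1.33 for FANCD2, 0.9996 for FANCB, 0.89 for FANCL, 0.69 for FANCC, 0.57 for FANCG and 0.53 for FANCA. TOPBP1 had 0.71.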

How the results depend on the processing

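With spike-in scaling, members called in Granta-519 were 0 lower and 4 higher, and in JeKo-1 0 higher; 0 had the lower change in Granta-519. Other pathway genes were then 1 lower and 11 higher in Granta-519, and 14 lower and 5 higher in JeKo-1. Of all genes, 0.892% were then lower and 50.3% higher in Granta-519, and 14.9% and 16.7% in JeKo-1. For the difference between the lines, 30.6% of all genes were then called above 0 and 1.31% below, with a median of 0.76. Granta-519 changes that turned positive with this scaling were EME1 0.25, FANCA 0.21, FANCC 0.019, FANCM 0.099, MRE11A 0.23, MUS81 0.71, NBN 0.73 and PALB2 0.38, and differences between the lines that did so were FANCF 0.69, MUS81 0.46, RAD50 0.77, RAD52 0.29 and XRCC3 0.30. At a mean RPKM of 5 or more, 19, 25 and 16 members were left for Granta-519, JeKo-1 and the difference: 15 were lower in Granta-519 and 11 had the deeper fall in JeKo-1. Other genes were then 1 higher in Granta-519 and 14 lower in JeKo-1. Quantile normalization gave 1 member with the lower change in Granta-519, 4 other genes higher there, RAD52 at -0.042 in Granta-519 and a RAD50 difference of 0.016. GC correction gave 2 members higher in JeKo-1, 0 with the lower change in Granta-519, and 4 other genes higher in Granta-519. Of all genes, 35.7% were then higher in JeKo-1, 18.0% had the lower change in Granta-519, and 23.6% were higher in Granta-519. NBN was at 0.034 in Granta-519, with differences of -0.22 for FANCM and -0.19 for MRE11A. Library weights gave 1 member and 4 other genes higher in Granta-519, against 31.9% of all genes, and RAD52 at -0.076. The joint fit gave 4 other genes higher there. With JeKo-1 read in base 2, 14 members had the deeper fall there and 1 the lower change in Granta-519. Of all genes, 15.8% and 17.9% then went these ways. The differences were -0.17 for FANCE, -0.017 for FANCM and 0.026 for RAD50. The cause of these shifts was not tested.

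The main fit did not use the replicate number. Deviations of same-numbered libraries correlated at 0.01, -0.12 and 0.03 in Granta-519 and at 0.19, 0.09 and 0.10 in JeKo-1. In JeKo-1 each library correlated best with its own number, and pairs of different numbers lay from -0.10 to 0.0005. What a shared number stands for was not tested. With the replicate block, 24 members were lower in Granta-519 (BARD1, MRE11A and PALB2 lost, FANCM gained), and 28 were lower and 2 higher in JeKo-1, where RAD52 (0.37, limma adjusted p = 0.0419) was gained. The block with GC correction gave 19 members with the deeper fall in JeKo-1 (FANCB and TOPBP1 lost besides those lost with GC correction), 3 higher there, 0 with the lower change in Granta-519, NBN at 0.034, and differences of -0.22 (FANCM) and -0.19 (MRE11A). With the block, 1903 genes were lower and 2285 higher in Granta-519, and 3806 and 4901 in JeKo-1.

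Leaving out 1 library at a time left 21 to 25 members lower in Granta-519, 25 to 28 in JeKo-1, 1 to 2 with the lower change in Granta-519 and 1 to 3 other genes higher there. Values that changed sign were all uncalled: in Granta-519 FANCF (-0.025 to 0.12), MUS81 (-0.092 to 0.012), NBN (-0.070 to 0.053) and RAD52 (-0.18 to 0.16), and in the difference FANCE (-0.0062 to 0.21), FANCM (-0.046 to 0.33) and RAD50 (-0.14 to 0.058). Over all single-gene values and alternatives, 537 kept their direction and their side of the threshold in Granta-519. A further 43 kept the direction and lost a call, 9 kept it and gained one, and 19 changed sign, with or without a change of call. In JeKo-1 these numbers were 626, 11, 11 and 0. Depth in reads is unknown, so the read support of genes near RPKM 1, such as RAD54B and BRIP1, could not be judged. In Granta-519, scaled by genomic span, a low RPKM need not mean few reads.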
